A study of Mus musculus with 12 samples.

Results

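Lysosomal genes were followed in mouse macrophages that met estradiol in culture and in macrophages washed from the lungs of pregnant mice. The set holds 38 genes for lysosomal membrane proteins, acid hydrolases with their activator proteins, and subunits of the vacuolar proton pump (V-ATPase). Cathepsins were not included. Each gene was read from the probe set with the highest mean among those annotated to that gene alone, which gave values for 35 of the 38 genes, out of 12393 genes measured in the series. The rule for picking probe sets used gene names and mean level over all arrays, and no difference between groups. The members themselves were chosen with earlier results of these data known. Cd63, Arsb and Atp6v0d2 had no such probe set and were not analysed here.

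RNA from 4 groups was hybridised to Affymetrix arrays, with 3 arrays per group. The Unstimulated and Estradiol groups were RAW264.7 cells, a mouse macrophage-like line, grown in RPMI with serum, and the Estradiol cultures received 1 ug/mL of estradiol overnight. The Control and Pregnant groups were bronchoalveolar lavage (BAL) macrophages of intact control and pregnant mice, with RNA taken without culture according to the series' design text. That text calls the untreated RAW264.7 cultures vehicle-treated, the group label calls them unstimulated, and the estradiol treatment note stands on all 12 samples. The strain and age of the mice, the sex of the Control mice, the stage of pregnancy, any sorting of the lavage cells and any pooling of animals are not given in the sources used here. If the Control mice were not all female, sex and pregnancy cannot be told apart. Nor is it stated that replicates were separate cultures or animals, so a p-value here reflects how far the 3 arrays of a group differ, and that difference may be technical. The test used, limma, also draws the spread of each gene toward a value common to all genes. The SEs and p-values given here therefore do not reflect the arrays of that gene alone. RAW264.7 is a single transformed line, which limits it as a model of tissue macrophages.

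Lysosomes are the acidic compartments in which macrophages break down what they engulf. The V-ATPase pumps protons into them, glycosidases, sulfatases, lipases, peptidases and phosphatases then cut the cargo, and membrane proteins protect the lysosome and export the products. In the lung, alveolar macrophages take up and degrade surfactant lipid along with inhaled particles. Transcription factors of the MiT/TFE family, such as Tfeb, are known to bind an E-box element shared by the promoters of many lysosomal genes, named the CLEAR element.

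The promoters of the set were searched for that element, since its letters are what the members could have in common beyond their function. RefSeq windows of 300 bases, 250 before to 50 after each gene start (build GRCm38.p6), were matched by symbol for 33 of the 38 members. The E-box core CACGTG, which reads the same on both strands, was present in the window of 11 of these 33 members (33.3%), against 8.09% of the 27025 genes with a window. The longer CLEAR core TCACGTGA, which contains the E-box core and is also its own reverse complement, was found in 4 of 33 members (12.1%), namely Atp6v0d1, Atp6v1a, Gla and Mcoln1, against 1.12% of genes. Acp5 and Ppt1, described below, had neither string in their window. Stretches from 5 members are shown. Arsa and Gla have a match and were called under estradiol. Atp6v1a, Gla and Mcoln1 hold a CLEAR core wholly before the gene start, and Lamp1 was chosen by name. Capitals mark the E-box core. The stretches lie at chr15:89477425-89477470 (Arsa, minus strand), chr16:44139355-44139420 (Atp6v1a, minus strand), chrX:134601164-134601255 (Gla, minus strand), chr8:13159070-13159160 (Lamp1, plus strand) and chr8:3500418-3500509 (Mcoln1, plus strand), all upstream of the gene start.
Arsa: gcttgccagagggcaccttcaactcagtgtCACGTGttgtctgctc
Atp6v1a: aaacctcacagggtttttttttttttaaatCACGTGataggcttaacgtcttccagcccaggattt
Gla: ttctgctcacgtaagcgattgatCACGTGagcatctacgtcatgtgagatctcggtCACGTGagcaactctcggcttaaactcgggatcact
Lamp1: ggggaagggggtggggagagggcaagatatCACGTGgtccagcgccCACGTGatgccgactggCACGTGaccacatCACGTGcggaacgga
Mcoln1: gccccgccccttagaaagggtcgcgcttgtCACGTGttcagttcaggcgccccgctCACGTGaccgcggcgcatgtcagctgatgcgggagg
Lamp1 carried 4 copies of the E-box core, Gla and Mcoln1 carried 2 each, and both copies in Gla sat within a full CLEAR core. A match is a description of these letters and does not show that a factor was bound.

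The arrays had median intensities of 369 to 393. Correlations of log2 values over all genes ran from 0.995 to 0.999 within groups, and from 0.904 to 0.910 between the lavage and RAW264.7 arrays. Between the 3' and 5' probe sets of actin, a sign of RNA quality, the log2 difference was 0.74 on Estradiol replicate 2 and 0.39 to 0.48 on the other RAW264.7 arrays. Replicate 2 of the Pregnant group was the highest of the lavage arrays at 0.39, with 0.26 to 0.35 on the others. Of 9 measured macrophage markers, 8 lay above the 40th percentile of intensity on every array of each group. All 9 measured alveolar macrophage markers did so in the lavage groups, and 2 of 9 in each RAW264.7 group.

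In RAW264.7 cells, estradiol moved a few lysosomal genes by small amounts, and not in one direction. The acid phosphatase Acp5, the sulfatase Arsa and the glycosidase Gla were lower with estradiol, and the thioesterase Ppt1 was higher. These 4 of 35 members passed the test (11.4%), 1 higher and 3 lower, beside 11.4% of all 12393 genes, of which 6.75% were higher and 4.66% lower. The median log2 difference was 0.01 over the members and 0.02 over all genes, with 18 members above 0 and 17 below. Called means an adjusted p under 0.05 in limma after Benjamini-Hochberg adjustment over all genes, and all levels and differences are of log2(intensity + 1).

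Acp5 encodes tartrate-resistant acid phosphatase, an enzyme of osteoclasts and alveolar macrophages. It measured 11.39, 11.43 and 11.39 on the Unstimulated arrays and 11.06, 10.99 and 11.05 on the Estradiol arrays. The groups did not overlap, and the spread within each was small beside the gap. The log2 difference was -0.37 ± 0.05 (SE from limma, n = 3 and 3), a 1.29-fold lower level (adjusted p = 0.0042), and 7.47% of all genes differed by more in size. Of the 4 calls this was the 1 that held under all 15 alternatives, with a difference between -0.39 and -0.34.

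Ppt1 removes fatty acyl groups from proteins bound for degradation. Its levels were 11.92, 11.92 and 11.86 without estradiol and 12.14, 12.18 and 12.10 with it. Every Estradiol array lay above every Unstimulated array. The difference was 0.24 ± 0.05, or 1.18-fold (adjusted p = 0.0228), and a second probe set of Ppt1 gave 0.33.

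Gla encodes alpha-galactosidase A, which trims galactose from glycolipids. It measured 12.59, 12.60 and 12.60 in unstimulated cells, the tightest trio of the 4 called genes, and 12.43, 12.30 and 12.37 with estradiol. The difference was -0.23 ± 0.05 (1.17-fold lower, adjusted p = 0.0355). A dimmer second probe set gave -1.01, but its values varied widely within each group and the groups overlapped. Its highest value in RAW264.7 cells was on an Estradiol array, so no direction is taken from it. The mean of both probe sets gave -0.62 (adjusted p = 0.525). Arsa, the arylsulfatase that acts on sulfatide, measured 8.81, 8.90 and 8.91 without estradiol and 8.53, 8.72 and 8.57 with it. Its groups did not overlap either. The difference was -0.26 ± 0.07 (adjusted p = 0.0477), close to the threshold.

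The calls of Ppt1, Gla and Arsa were less stable than that of Acp5. All 3 were lost whichever Unstimulated array was left out. Their differences in these fits were 0.22 to 0.25 for Ppt1, -0.23 to -0.22 for Gla and -0.29 to -0.25 for Arsa. Without Unstimulated replicate 1, 2 or 3, or without Estradiol replicate 3, Acp5 was the 1 called member, while the calls among all genes went from 1414 to between 637 and 824. Without Estradiol replicate 2, the array with the widest 3' to 5' gap, 4 members were called, again 1 higher and 3 lower, and the median of the members was -0.05. With all 12 arrays in 1 fit 2 members were called, and Gla (adjusted p = 0.195) and Arsa (adjusted p = 0.0932) were not. Arsa also missed the threshold after quantile normalization (adjusted p = 0.115), with a common median (adjusted p = 0.121) and with the robust prior (adjusted p = 0.0528).

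**Figure D1:**
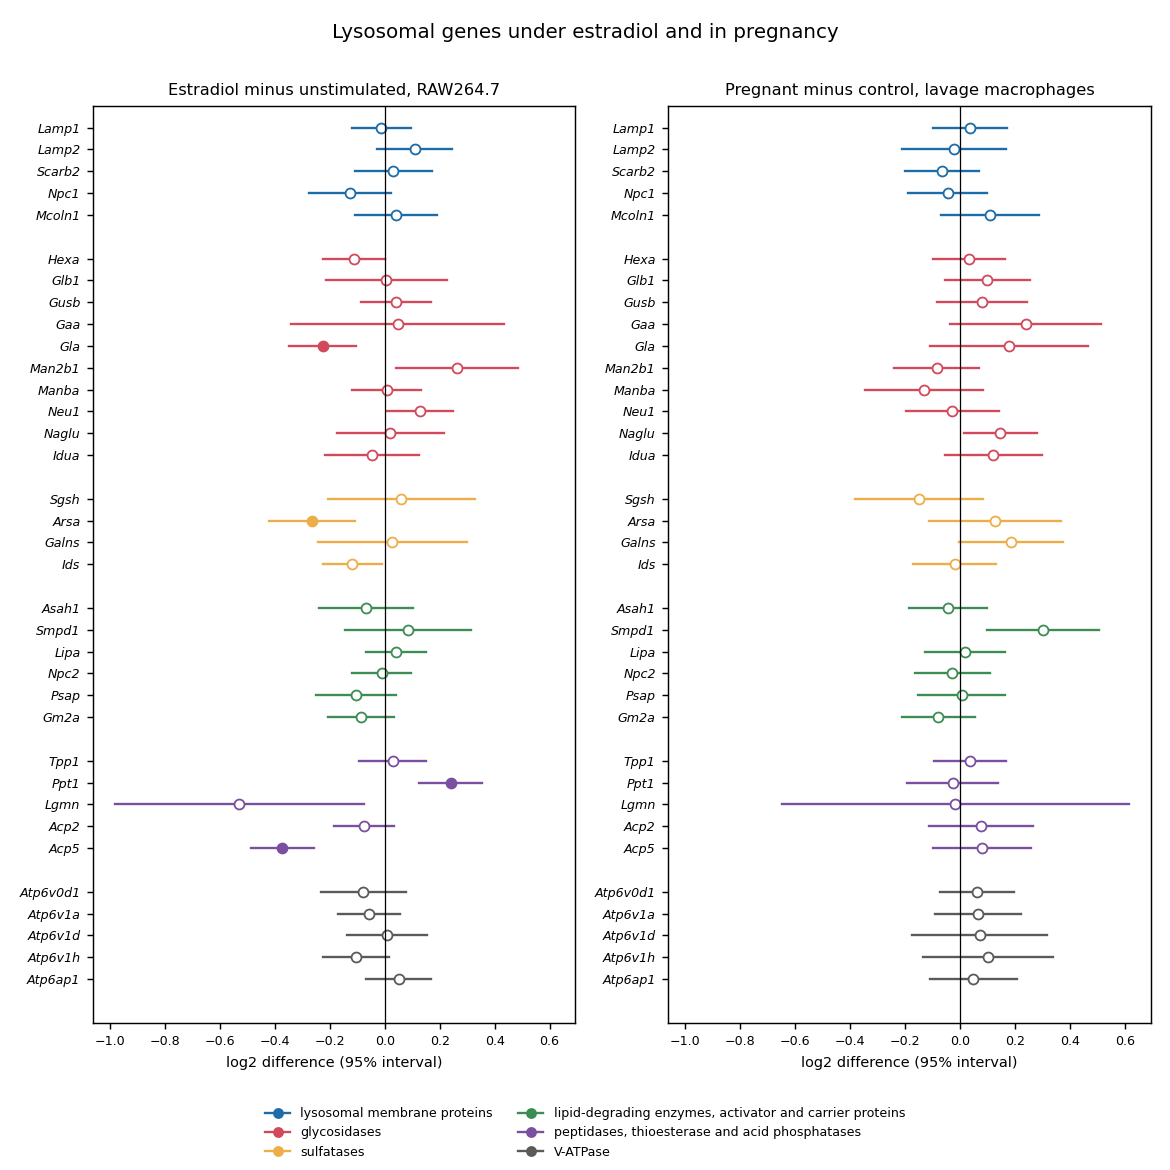
Log2 difference of each of the 35 measured lysosomal genes (rows, coloured by role) for estradiol minus unstimulated RAW264.7 cells (left) and pregnant minus control lavage macrophages (right), with 95% intervals from limma over 3 arrays a group. Filled points passed an adjusted p under 0.05. These are Acp5 (-0.37), Arsa (-0.26), Gla (-0.23) and Ppt1 (0.24) on the left, and none on the right, where the widest interval is that of Lgmn.

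By role, none of the 5 membrane proteins was called under estradiol, and their median difference was 0.03. Lamp1, the abundant glycoprotein of the limiting membrane, measured 13.70, 13.67 and 13.67 in unstimulated and 13.67, 13.70 and 13.64 in estradiol-treated cells. The trios interleave, and the interval of the difference (-0.01) ran from -0.12 to 0.10. Its relative Lamp2, which also takes part in autophagy, measured 12.78, 12.77 and 12.88 and then 12.98, 12.93 and 12.85, an overlap with a difference of 0.11 ± 0.06 (adjusted p = 0.283). Other probe sets of Lamp2 gave 0.04, -0.08 and -0.11, so no direction is given. Npc1, which exports cholesterol from the lysosome, differed by -0.13 ± 0.06 (adjusted p = 0.250).

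Among the 10 glycosidases only Gla was called, and the median difference was 0.01. Man2b1, the lysosomal alpha-mannosidase, measured 11.34, 11.17 and 11.22 without and 11.37, 11.70 and 11.46 with estradiol. Each Estradiol value was above each Unstimulated value, but replicate 2 stood above the other Estradiol arrays. The difference of 0.26 ± 0.09 had an adjusted p of 0.127, and without replicate 2 it was 0.17. The sialidase Neu1 measured 10.82, 10.85 and 10.77 and then 10.90, 10.98 and 10.93, without overlap (0.13 ± 0.05, adjusted p = 0.158), while its other probe sets gave 0.27 and -0.09. Hexa, the alpha subunit of beta-hexosaminidase A, differed by -0.11 ± 0.05 (adjusted p = 0.185).

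Of the 4 sulfatases Arsa was called, and the median of all 4 was -0.04. None of the 6 genes for lipid breakdown passed, and they ranged from -0.11 for prosaposin (Psap), the precursor of sphingolipid activators, to 0.08 for the acid sphingomyelinase Smpd1. Second probe sets gave larger differences for 2 of these genes. That of Psap measured 13.41, 13.39 and 13.45 without and 13.09, 13.15 and 13.13 with estradiol, fully separated (-0.29), and the mean of both probe sets gave -0.20 (adjusted p = 0.0533). That of the activator protein Gm2a was dimmer and gave -0.62, and the mean of both gave -0.35 (adjusted p = 0.194). The 5 peptidases, thioesterase and phosphatases varied most among themselves, from -0.53 to 0.24. The low end was Lgmn, the asparaginyl endopeptidase legumain, which measured 12.44, 12.59 and 12.57 without and 12.38, 11.56 and 12.07 with estradiol. All Estradiol values were below all Unstimulated ones, with replicate 2 far below the others. The difference of -0.53 ± 0.19 was the largest of any member and did not pass (adjusted p = 0.132). Without Estradiol replicate 2 it was -0.31, and without replicate 1 it was -0.72 and passed (adjusted p = 0.0403).

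The V-ATPase members showed no call under estradiol. Atp6v0d1, which links the membrane ring of the pump to its central stalk, measured 12.82, 12.77 and 12.83 in unstimulated cells and 12.66, 12.85 and 12.67 with estradiol. Its groups overlap through Estradiol replicate 2 (-0.08 ± 0.07). The other members were the catalytic subunit Atp6v1a, Atp6v1d, the regulatory subunit Atp6v1h and the accessory protein Atp6ap1. By the probe sets used, they ranged from -0.10 to 0.05. Further probe sets of Atp6v1d gave -0.03 and -0.17, the latter with fully separated groups.

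Over all roles, an unadjusted p under 0.05 was found for 9 of the 35 members, beside 3331 of 12393 genes, a similar share. In 13 of 35 members (37.1%) the arrays of the 2 groups were fully separated, 3 with higher and 10 with lower estradiol values. Over all 12393 genes the share was 34.8%, with 2463 higher and 1846 lower. Counted in either direction, the share of separated members was near that of the array as a whole. By direction, more members were lower than higher, while over all genes more were higher than lower.

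**Figure D2:**
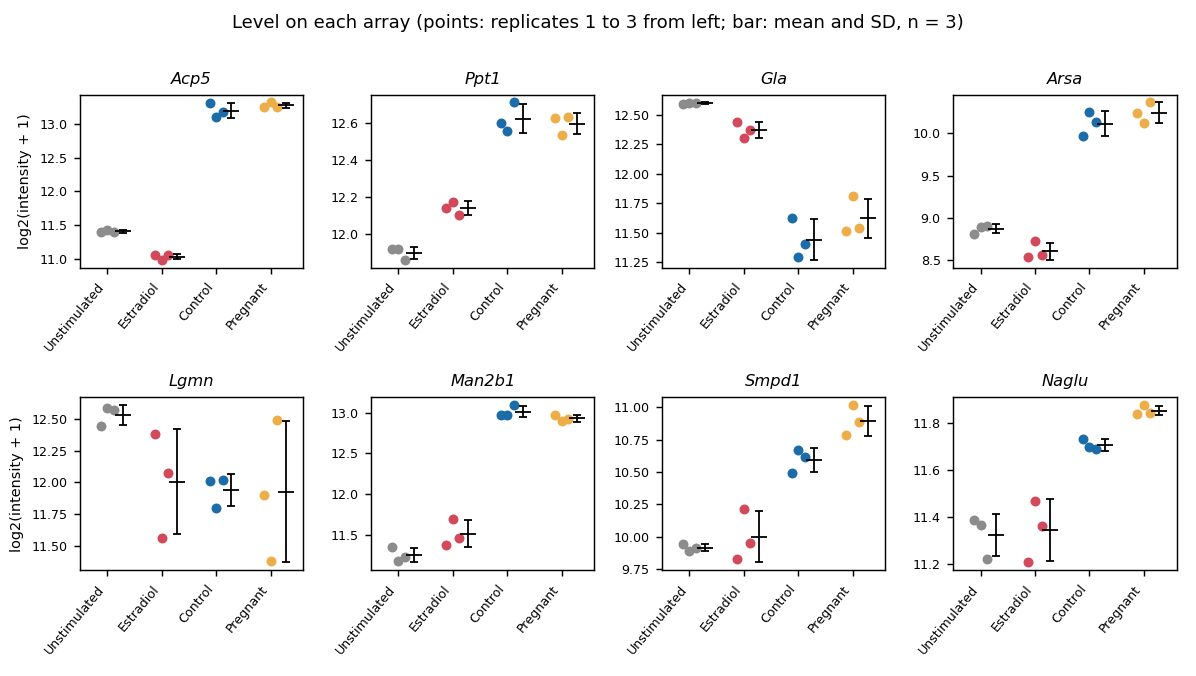
Level, as log2(intensity + 1), of 8 lysosomal genes on each of the 12 arrays (points, replicates 1 to 3 from left to right in each group), with the group mean and SD of 3 arrays (bars); each panel has its own scale, which does not start at 0. Acp5, Gla and Arsa lie lower and Ppt1 higher with estradiol, and the replicates of Lgmn spread from 11.56 to 12.38 in the Estradiol group.

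Other genes of the lysosomal system showed a few larger differences under estradiol. In a list of 16 measured autophagy genes 3 were higher and none lower, beside 6.75% higher and 4.66% lower of all genes. Wipi1, which binds the lipid of the forming autophagosome, measured 7.41, 7.48 and 7.35 without and 8.30, 8.48 and 8.17 with estradiol (0.91 ± 0.09, adjusted p = 0.0011). Ulk1, the kinase that starts autophagy, went from 9.09, 9.13 and 9.11 to 9.80, 10.21 and 9.88 (0.86 ± 0.11, adjusted p = 0.0034). The third was the cargo receptor Sqstm1 (0.26 ± 0.04, adjusted p = 0.0134). The list median was nevertheless 0.00, with 8 genes above 0 and 8 below.

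Of 13 measured MiT/TFE factors and nutrient-sensing genes, 1 was higher and 2 were lower, beside the same 6.75% and 4.66% of all genes. Tfeb itself measured 9.15, 9.17 and 9.08 without and 8.38, 8.81 and 8.59 with estradiol, a difference of -0.54 ± 0.11 (adjusted p = 0.0213). Its relative Tfec differed by -0.35 ± 0.07 (adjusted p = 0.0243), and Lamtor4, a subunit of the complex that holds mTORC1 at the lysosome, was higher by 0.36 ± 0.08 (adjusted p = 0.0274). The list median was 0.03.

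In each remaining list 1 gene was called in the main fit, beside 11.4% of all genes in either direction. Of 15 other lysosomal membrane proteins Laptm4b was higher, at 8.50 to 8.58 without and 9.05, 9.37 and 9.19 with estradiol (0.66 ± 0.08, adjusted p = 0.0041). Hgsnat, an acetyltransferase of heparan sulfate breakdown, was the 1 called of 9 other hydrolases and cofactors (0.37 ± 0.05, adjusted p = 0.0074). The sorting receptor Sort1 was the 1 called of 9 sorting genes (0.27 ± 0.06, adjusted p = 0.0254). Atp6v1b2 was the 1 called of 12 other V-ATPase subunits, with a difference of -0.18 ± 0.04 (adjusted p = 0.0417). Wipi1, Ulk1, Laptm4b and Hgsnat stayed called under all 15 alternatives, while Tfeb, Lamtor4, Sort1, Sqstm1 and Atp6v1b2 were each lost when any 1 of the Unstimulated arrays was left out. Without Estradiol replicate 3 these 5 were lost as well, as was Tfec, which was also lost without Unstimulated replicate 2 or 3. Adjusted p in these fits ran from 0.0655 to 0.0867 for Tfeb and from 0.0814 to 0.0986 for Tfec. Other genes of these lists were called under some alternatives. With the mean of probe sets Atp6v0a1 (-0.58, adjusted p = 0.0036), Pla2g15 (-0.34, adjusted p = 0.0046) and Gnptab (-0.21, adjusted p = 0.0273) were lower. Ctbs was higher there (0.22, adjusted p = 0.0231), and Atp6v1b2 was not called (adjusted p = 0.0519). Galc (-0.32) was called with the filter on dim genes (adjusted p = 0.0272) and under some other alternatives.

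In lavage macrophages no lysosomal gene passed the test between pregnant and control mice. None of the 35 members was called (0% of all genes in either direction), and 2 members had an unadjusted p under 0.05, among 1163 such genes in all. The median difference was 0.04 over the members and 0.03 over all genes. Of the members, 22 (62.9%) were above 0, beside 60.5% of all genes. In bulk RNA, fewer cells of a type and less RNA per cell cannot be told apart. Marker lists of other cell types had larger median differences, though none of their genes was called. The median difference was 0.46 over 9 epithelial markers (7 above 0, 3 with an unadjusted p under 0.05), -0.56 over 7 T cell markers (5 below 0), -0.29 over 5 B cell markers (3 below 0) and 0.12 over 6 neutrophil markers (5 above 0). In each lavage group 6 of these epithelial and 2 of these neutrophil markers lay above the 40th percentile on every array. So did 1 of the T cell and 0 of the B cell markers, so those medians rest mostly on dim genes. The part of these cell types in the values of the lysosomal genes was not tested. The smallest adjusted p of a lysosomal gene was 0.454, and no member was called with any 1 array left out.

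The acid sphingomyelinase Smpd1, which splits sphingomyelin into ceramide and phosphocholine, had the largest difference. It measured 10.49, 10.67 and 10.62 in control and 10.78, 11.02 and 10.89 in pregnant mice. The Pregnant values all lay above the Control values, with a difference of 0.30 ± 0.09 and a 95% interval of 0.10 to 0.51 (unadjusted p = 0.0105, adjusted p = 0.454). Naglu, a glycosidase of heparan sulfate, was close within each group, at 11.74, 11.70 and 11.69 in control and 11.84, 11.88 and 11.84 in pregnant mice (0.15 ± 0.06, unadjusted p = 0.0344, adjusted p = 0.499).

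Gaa, which releases glucose from glycogen, measured 10.98, 11.21 and 11.06 in control and 11.23, 11.55 and 11.20 in pregnant mice. The groups met at their edges, Control replicate 2 lying above Pregnant replicate 3 (0.24 ± 0.12, adjusted p = 0.572). The sulfatase Galns measured 11.18, 11.25 and 11.33 and then 11.35, 11.56 and 11.41 (0.19 ± 0.08, adjusted p = 0.535). For Smpd1, Galns, Gaa and Naglu alike, the highest of the 3 Pregnant values was on replicate 2, the Pregnant array with the widest 3' to 5' gap. Without that array the differences were 0.24 for Smpd1 and 0.13 for each of Galns, Gaa and Naglu.

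At the other end, Sgsh, another enzyme of heparan sulfate breakdown, measured 10.31, 10.58 and 10.53 in control and 10.36, 10.41 and 10.21 in pregnant mice (-0.15 ± 0.10, adjusted p = 0.661). Beta-mannosidase (Manba) measured 12.26, 12.27 and 12.39 and then 12.32, 12.03 and 12.16 (-0.13 ± 0.09, adjusted p = 0.672). Both pairs of groups overlap. Man2b1 measured 12.98, 12.98 and 13.10 in control and 12.98, 12.90 and 12.92 in pregnant mice, where the groups nearly touch but do not overlap (-0.08 ± 0.06, adjusted p = 0.699). Its second probe set gave -0.54.

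Of the genes called under estradiol, none stood out in pregnancy. Acp5 measured 13.31, 13.10 and 13.17 in control and 13.25, 13.32 and 13.25 in pregnant mice (0.08 ± 0.08, adjusted p = 0.761). Ppt1 was 12.60, 12.56 and 12.71 and then 12.62, 12.53 and 12.63, with a difference of -0.03. Gla and Arsa differed by 0.18 and 0.13, and in both the groups overlap. The second probe set of Gla gave -0.25. Lgmn measured 12.01, 11.79 and 12.02 in control and 11.90, 11.38 and 12.49 in pregnant mice. The 3 Pregnant values bracket all the Control values, and its interval, -0.65 to 0.61, takes in the difference measured under estradiol.

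Among the membrane proteins Lamp1 measured 13.73, 13.77 and 13.73 in control and 13.77, 13.82 and 13.75 in pregnant mice, and the interval of the difference was -0.10 to 0.17. Lamp2 was 13.09, 13.13 and 13.04 and then 13.09, 13.18 and 12.94. Neither pair separated. Scarb2, which carries glucocerebrosidase to lysosomes, had lower values on every Pregnant array, by a mean difference of -0.07 ± 0.06 (adjusted p = 0.729), but its other probe set gave 0.08, so no direction is given. In all, 8 of 35 members did not overlap between the groups (22.9%, 5 higher and 3 lower in pregnant mice), beside 15.7% of all genes. Of the 12393 genes, 1325 were separated with higher and 618 with lower values in pregnant mice.

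The V-ATPase differences in pregnancy were mostly small and mostly of one sign. By the probe sets used, all 5 measured members were above 0, from 0.05 for Atp6ap1 to 0.10 for Atp6v1h, with a median of 0.06, while a second probe set of Atp6v1a gave -0.02. Atp6v0d1 measured 13.07, 13.07 and 13.09 in control and 13.14, 13.17 and 13.10 in pregnant mice, without overlap (0.06 ± 0.06, adjusted p = 0.755). By the probe sets used, all 12 other measured subunits were above 0 as well, with a median of 0.05. Of all genes, 60.5% were above 0. The largest difference of these subunits was that of the membrane subunit Atp6v0e2, at 9.66, 9.91 and 9.76 in control and 10.10, 10.19 and 10.19 in pregnant mice (0.39 ± 0.08, adjusted p = 0.429). None of the 17 passed the test. Without Pregnant replicate 2, 14 of the 17 were above 0, 4 of the 5 members among them, and without any other single array 16 or 17 were.

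No gene of the other lysosomal, sorting, MiT/TFE or autophagy lists was called in pregnancy. Wipi1 differed by 0.19 ± 0.11 (adjusted p = 0.618) and Ulk1 by 0.11 ± 0.07 (adjusted p = 0.640). Tfeb measured 9.76, 9.95 and 9.86 in control and 9.77, 9.88 and 9.78 in pregnant mice, an interleaved set.

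**Figure D3:**
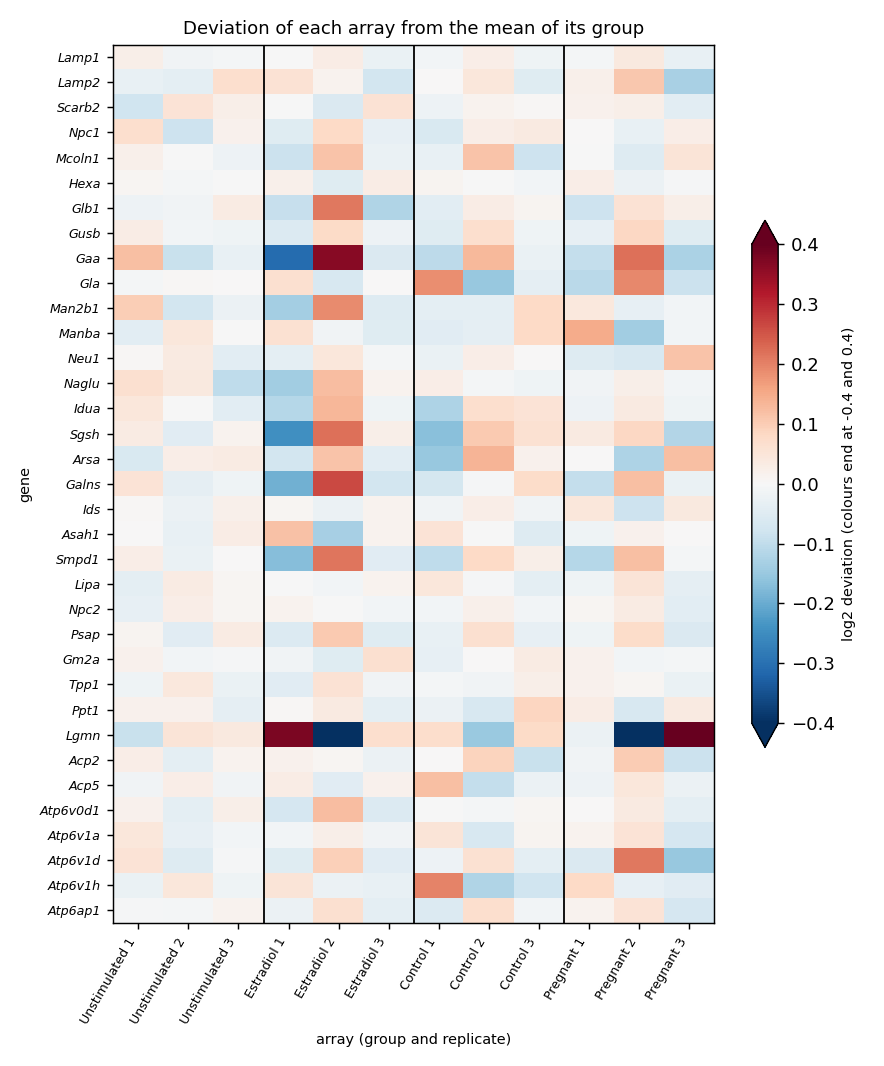
Deviation of each array from the mean of its own group (columns, log2, colours ending at -0.4 and 0.4) for the 35 measured lysosomal genes (rows). Many of the stronger colours stand on Estradiol replicates 1 and 2 and on Pregnant replicate 2, and Lgmn is the lowest of its group on both, at 11.56 and 11.38.

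The 2 arrays with the widest 3' to 5' gap of their source also held many of the extremes. Estradiol replicate 2 was the highest of its group for 21 of 35 members and the lowest for 9, so that it was an extreme for 30, beside 76.6% of all genes. Pregnant replicate 2 was the highest for 22 members and the lowest for 11, an extreme for 33, beside 72.6% of all genes. Members highest on both arrays included Gaa, Galns, Sgsh, Smpd1, Lamp1, Glb1 and Atp6v0d1. Those lowest on both included Lgmn, Hexa, Ids and Gm2a. The median absolute deviation of the members from their group mean was 0.06 on Estradiol replicate 2 and 0.05 on Pregnant replicate 2, and that of all genes 0.08 and 0.07.

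The change in pregnancy and the change under estradiol were then set against each other in 1 fit over the 12 arrays. Acp5 was the 1 member whose changes differed, with a pregnancy change minus estradiol change of 0.45 ± 0.08 (adjusted p = 0.0144). It made up 2.86% of the members, beside 4.43% of all genes, of which 2.21% were higher and 2.22% lower. The level of Acp5 was lower with estradiol in the cell line (-0.37), and in pregnancy its difference was 0.08 with overlapping groups. The difference of changes had a median of 0.08 over the members and 0.01 over all genes.

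Other members missed the threshold. Lgmn had the largest difference of changes (0.51 ± 0.36, adjusted p = 0.488), with the wide spread given above. Gla followed Acp5 at 0.41 ± 0.13 (adjusted p = 0.129) and Arsa stood at 0.39 ± 0.12 (adjusted p = 0.109). Below 0 lay Man2b1 at -0.35 ± 0.12 (adjusted p = 0.131), Ppt1 at -0.27 ± 0.08 (adjusted p = 0.0860) and Sgsh at -0.21 ± 0.16 (adjusted p = 0.521). Without Control replicate 1 a second member, Gla, was called (0.50, adjusted p = 0.0494). With the mean of probe sets Man2b1 (-0.52, adjusted p = 0.0307) and Ppt1 (-0.34, adjusted p = 0.0293) were called as well. Among the other lists Ulk1, Wipi1, Laptm4b and Hgsnat were called, each with a smaller change in pregnancy than under estradiol.

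The largest differences of the set were between the sources. Lavage macrophages of control mice had higher levels than unstimulated RAW264.7 cells for 25 of 35 members and lower levels for 5, all called. That is 71.4% of the members higher and 14.3% lower, beside 27.9% and 34% of all genes, and 85.7% called in either direction beside 61.9%. The median difference was 0.38 over the members and -0.07 over all genes. Tissue, culture, and any difference in sex or RNA handling cannot be told apart here, and this comparison shares its arrays with both comparisons above.

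By the probe sets used, all 4 sulfatases were higher in lavage macrophages, as were 4 of 5 membrane proteins (Lamp2 among them), 5 of 6 genes of lipid breakdown, 7 of 10 glycosidases and 3 of 5 peptidases, thioesterase and phosphatases. A dimmer probe set of the sulfatase Sgsh gave -0.09 beside 0.78, and the dimmest of the sulfatase Ids gave -0.03 beside 0.82. Acp5 differed most, with the values given above, by 1.79 ± 0.07 or 3.45-fold. Man2b1 was higher by 1.77 ± 0.07. The sulfatase Galns measured 9.56, 9.47 and 9.49 in the cell line and 11.18 to 11.33 in control lavage, a difference of 1.75 ± 0.06. Scarb2 went from 11.48, 11.61 and 11.58 to 13.25, 13.28 and 13.27 (1.71 ± 0.05). Npc1 (1.54), Arsa (1.24) and Neu1 (1.23) followed, at 2.91-, 2.36- and 2.34-fold. Arsa and Acp5, lower with estradiol in the cell line, were thus both among the genes with a higher level in lavage, and so was Ppt1 (0.72 ± 0.06).

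The 5 members with lower levels in lavage were Gla, Atp6v1h, Atp6v1a, Lgmn and Gusb. Gla measured 12.59 to 12.60 in the cell line and 11.63, 11.29 and 11.41 in lavage (-1.16 ± 0.09, 2.23-fold lower). The pump subunit Atp6v1h measured 12.52, 12.59 and 12.53 and then 11.97, 11.66 and 11.70 (-0.78 ± 0.09). The catalytic subunit Atp6v1a measured 13.55, 13.47 and 13.49 and then 12.93, 12.81 and 12.89 (-0.63 ± 0.05). Neither set overlapped. Lgmn differed by -0.59 ± 0.08 and beta-glucuronidase (Gusb) by -0.24 ± 0.05. The V-ATPase thus split within itself, since Atp6v0d1 (0.27 ± 0.04) and Atp6ap1 (0.25 ± 0.05) were higher, and Atp6v1d was not called (-0.13 ± 0.05, adjusted p = 0.0785).

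Lamp1, Npc2, Tpp1 and Idua did not pass between the sources either, with differences of 0.06, 0.07, 0.10 and 0.02. With the robust prior Lamp1, Npc2, Tpp1 and Atp6v1d were called at adjusted p of 0.0435, 0.0289, 0.0221 and 0.0253. With the mean of probe sets Tpp1 (adjusted p = 0.0065) and Atp6v1d (adjusted p = 0.0031) were. The interval of Lamp1 was narrow, from -0.04 to 0.17. For Lamp2 the probe sets disagreed, 2 giving 0.28 and 0.24 and the other two -0.34 and -0.44, so no direction is given for the gene. Of the 20 members with several probe sets, all of a gene's probe sets had the same sign for 16 in this comparison and for 12 in the estradiol and in the pregnancy comparison.

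**Figure D4:**
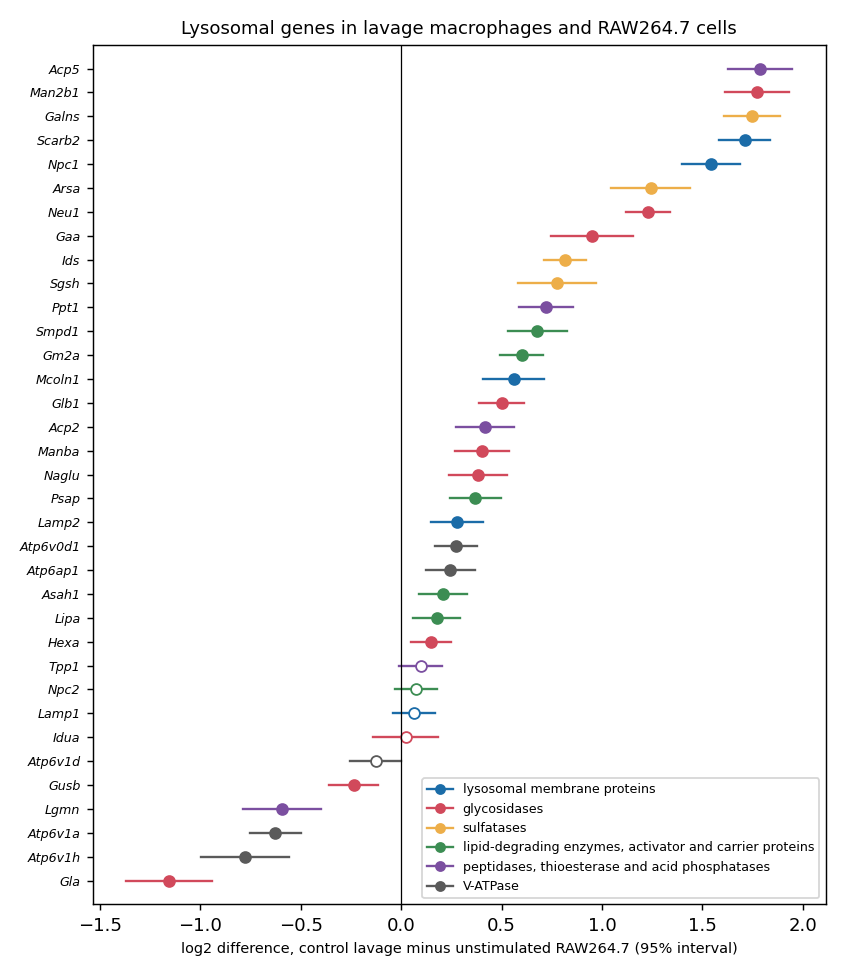
Log2 difference of each of the 35 measured lysosomal genes between control lavage macrophages and unstimulated RAW264.7 cells, ordered by size, with 95% intervals from limma over 3 arrays a group. Filled points passed an adjusted p under 0.05, 25 of them to the right of 0 and 5 to the left, where Gla lies lowest at -1.16; the point of Lamp2 (0.28) is that of 1 of its 4 probe sets, which disagree in sign.

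Marker lists of other cell types also differed between the sources. Summed intensities of 9 epithelial markers were 352 to 423 on the Unstimulated arrays, 13954.5 to 23541 on the Control arrays and 15895 to 26933 on the Pregnant arrays, and 6 of the 9 lay above the 40th percentile on every array of the lavage groups. For 6 neutrophil markers the sums were 242 to 279, 4592 to 17277 and 4637 to 8524, with S100a8 and S100a9 above the 40th percentile on all lavage arrays. For 7 T cell markers they were 351 to 372, 11426 to 11780 and 10677 to 12061, carried by Cd2. Their part in the lysosomal differences between the sources was not tested. The sums follow the brightest genes of each list, and their Control and Pregnant ranges overlap for all 3 lists, while the medians over the genes differed as given with the pregnancy results.

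Both signs of the source difference occurred among members with the promoter strings. Of the 31 measured members with a window, 7 of the 11 with an E-box core were higher in lavage, and 15 of the 20 without one. Of the 4 with a CLEAR core, Mcoln1 and Atp6v0d1 were higher, and Gla and Atp6v1a lower. In the other lists, both signs were called as well, with 4 higher and 3 lower of 12 other V-ATPase subunits, 5 and 3 of 9 other hydrolases, 8 and 4 of 15 other membrane proteins, and 11 and 2 of 16 autophagy genes. Over all genes 27.9% were called higher and 34% lower. Among the MiT/TFE and nutrient-sensing genes 5 were higher and 3 lower, with Tfeb higher by 0.72 ± 0.06 and Tfec by 1.54 ± 0.07.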

How the data were processed

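Total RNA of 12 samples (4 groups of 3, taken from the group label) was measured on Affymetrix arrays. Per the submitters' processing notes, the authors made the values with RMA (version not given in the sources used here). The deposited values are intensities on a linear scale, 1 per probe set and array, and log2(intensity + 1) was analysed here. Of 22690 probe sets, 20380 were annotated to 1 gene, 691 to several and 1555 to none, 64 were controls, and 29 single-gene probe sets had no current gene ID. The probe set with the highest mean was kept for each of 12393 genes.

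limma 3.58.1 (R 4.3.3, with the data.table package, version 1.17.8) fitted each comparison with lmFit and eBayes, two-sided, with Benjamini-Hochberg adjustment over all genes and calls at an adjusted p under 0.05. Each fit used its 6 arrays, and the difference of changes all 12. The fit was tested on simulated data. Replicate numbers follow deposit order and pair nothing. With 3 arrays a group, array number limits precision. Python 3.11.15, pandas 2.3.3 and matplotlib 3.10.9 served the promoter search and plots.

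The members and lists were chosen with earlier results of these data known. Named in full are members that were called, the 3 largest differences in each direction (4 between sources), Lamp1, Lamp2, Acp5 and Atp6v0d1. Up to 4 genes of each other list by smallest p under estradiol, and 2 in pregnancy, could be named. A planned comparison of the Atp6v0d1 and Atp6v0d2 proteins was not run. The alternatives were quantile normalization, a common median, the mean of probe sets, a filter on dim genes (kept when 3 or more arrays exceeded the 40th percentile), an intensity-dependent robust prior, no pseudocount, a pseudocount of 16, an adjusted p under 0.01, all 12 arrays in 1 fit, and each array left out in turn.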

Additional observations from a re-analysis of the deposited data

Results flagged for a closer look

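For 5 genes the change in pregnancy and the change under estradiol differed in a test of the difference itself (limma over 12 arrays, pregnancy change minus estradiol change, adjusted p under 0.05). The acid phosphatase Acp5 differed by 0.45, from a change of -0.37 under estradiol and of 0.08 in pregnancy. The other 4 belong to the surrounding lists and had the larger change under estradiol. Ulk1 differed by -0.75 (0.86 under estradiol, 0.11 in pregnancy), Wipi1 by -0.72 (0.91 and 0.19), Laptm4b by -0.64 (0.66 and 0.02) and Hgsnat by -0.45 (0.37 and -0.08). The calls of Acp5, Ulk1 and Laptm4b held without any 1 array. Hgsnat missed the threshold without Unstimulated replicate 1 or 2 (adjusted p = 0.0560 and 0.0566). Wipi1 missed it without Unstimulated replicate 1 or 3 (adjusted p = 0.0554 and 0.0606) and when its probe sets were averaged (-0.35, adjusted p = 0.0799).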

How the results depend on the processing

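Under estradiol, called members went from 4 to 1 at an adjusted p under 0.01 (558 genes in all) and to 2 with all 12 arrays in 1 fit, and ranged from 1 to 4 with an array left out (637 to 1730 genes). Acp5 kept its call under all 15 alternatives, and 29 of 31 uncalled members stayed uncalled. In pregnancy no member was called under any alternative, and the calls among all genes were 1 with the filter on dim genes, 18 with all 12 arrays in 1 fit and 0 to 2 with an array left out. For the difference of changes, called members were 2 with the filter on dim genes, 3 with the mean of probe sets, 3 with the robust prior and 0 at an adjusted p under 0.01 (169 genes), and 1 to 2 with an array left out (263 to 573 genes). Between the sources 26 of 30 called members kept their call under every alternative, and 1 of 5 uncalled members stayed uncalled under every alternative. With the mean of probe sets the median of the members moved to 0.34, Lamp2 turned to -0.067 and Mtor, of the nutrient-sensing list, to -0.36, since their probe sets disagree. With arrays shifted to a common median, 28 of 35 members lay above 0 in pregnancy, beside 70.6% of all genes. No paired analysis was possible because the labels carry no replicate numbers. The table holds no detection calls, so signal near background limits dim genes by an amount not given in the sources used here, and the causes of the other changes above were not tested.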

Other observations

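Acp5 is also a marker of osteoclasts, and 5 other genes of an osteoclast list of 8 were measured. None of these 5 was called under estradiol or in pregnancy. Calcr, the calcitonin receptor, differed by 0.21 ± 0.06 under estradiol (adjusted p = 0.0917) at levels under the 40th percentile on every array. The transcription factor Nfatc1 differed by 0.16 ± 0.08 (adjusted p = 0.249) and the fusion protein Ocstamp by -0.26 ± 0.15 (adjusted p = 0.305). In pregnancy Ocstamp differed by 0.32 ± 0.11 (adjusted p = 0.483) and Nfatc1 by -0.24 ± 0.09 (adjusted p = 0.493). The summed intensity of the 6 measured genes, Acp5 included, was 19365 to 19883 on the Unstimulated and 17959 to 19206 on the Estradiol arrays.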
